A study of Mus musculus with 6 samples.

Results

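The genes described here are 10 genes of the major histocompatibility complex (MHC) and of antigen presentation, found in the counts table by their gene names: the class I heavy chains H2-K1 and H2-D1 with their light chain B2m, the class II chains H2-Aa, H2-Ab1 and H2-Eb1 with the invariant chain Cd74, the class II and class I transactivators Ciita and Nlrc5, and the peptide transporter subunit Tap1. All 10 were among the 53801 genes in the table, and all 10 were among the 23975 genes whose counts summed to 10 or more, which were the genes tested. The study asked how the loss of BAHD1, a protein of repressive chromatin that works with the histone deacetylases HDAC1 and HDAC2, changes RNA levels in the brain. RNA-seq counts came from a brain hemisphere of 3 Bahd1-KO mice (genotype Bahd1-/-) and 3 Bahd1-WT mice (Bahd1+/+). All 6 were adult C57BL/6 animals given as about 70 weeks old, with no treatment other than the knockout. The knockout was carried by all cells of the animal, and homozygous mice were bred from heterozygous parents. Each library was the RNA of the whole hemisphere of a mouse, so that fewer cells of a type and less RNA per cell cannot be told apart.

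MHC class I molecules present peptides from inside the cell to CD8 T cells. They consist of a polymorphic heavy chain and beta-2-microglobulin, and are loaded with peptides that the TAP transporter carries into the endoplasmic reticulum. Class II molecules present peptides taken up from outside to CD4 T cells and are held ready by the invariant chain until they are loaded. In the brain, neurons and most glia carry little of either, while microglia, the macrophages of the brain borders, dendritic cells and endothelium are the usual sources, and interferon gamma raises both classes through the transactivators NLRC5 and CIITA.

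Depth ran from 42297150 to 93557948 counts per library, so that 3 counts, taken as the smallest level that could be shown, stood for 0.0315 to 0.069 CPM (counts scaled to a common library size, with TMM factors for composition). Bahd1 itself was read 1383, 844 and 1099 times in the Bahd1-WT libraries and 0, 14 and 1 times in the Bahd1-KO libraries, in the order of their replicate numbers, which fits the labels. Summed marker genes of neurons (6510 to 9230 CPM), astrocytes (1700 to 2240 CPM) and oligodendrocytes (5060 to 8250 CPM) were high in every library, as in brain tissue. A pair of libraries stood apart. Bahd1-WT replicate 1 held 118 CPM over 9 marker genes of lung epithelium, against 27.6 and 2.54 CPM in the other Bahd1-WT libraries and 0.644 to 1.52 CPM in the Bahd1-KO libraries. Bahd1-KO replicate 2 had the highest level of 95% of 2898 expressed genes with a GC content of 55% or more, and of 0.488% of 3074 with less than 45%. The LFCs of the 10 genes are therefore also given without these libraries.

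Of the 10 genes, 6 lie in the MHC region of chromosome 17 of GRCm38: H2-K1 (33996017 to 34000347), Tap1 (34187553 to 34197225), H2-Ab1 (34257689 to 34269419), H2-Aa (34282744 to 34287823), H2-Eb1 (34305867 to 34316674) and H2-D1 (35262730 to 35267499). The others lie elsewhere, B2m on chromosome 2 (122147686 to 122153083), Nlrc5 on chromosome 8 (94434356 to 94527272) and Ciita on chromosome 16 (10480059 to 10528418), and the position of Cd74 is given with its values. All are annotated as protein-coding.

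The promoters of class I and class II genes are known for a shared module of X and Y boxes, bound by RFX, CREB and NF-Y factors, on which NLRC5 and CIITA act. Windows of 250 bases before a RefSeq start were found for 6 of the 10 genes (build GRCm38.p6), and those of the heavy chains, of B2m and of the class II chains H2-Aa and H2-Eb1 are shown because these genes differ in how they stood between the genotypes. Capitals mark the letters CCAAT (Y box), GCAAC (core of the X1 box), TGACG (core of the X2 box), AANNGAAA (core of an interferon-stimulated response element) and GGGGATTCC (core of a kappaB site), each searched on both strands.
H2-K1 (chr17:34000348-34000597, minus strand): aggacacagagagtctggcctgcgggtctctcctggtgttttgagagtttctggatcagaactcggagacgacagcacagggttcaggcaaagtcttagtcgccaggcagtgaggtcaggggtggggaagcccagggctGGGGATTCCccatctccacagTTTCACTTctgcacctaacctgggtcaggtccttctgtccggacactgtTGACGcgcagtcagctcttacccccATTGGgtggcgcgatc
H2-D1 (chr17:35262844-35263093, plus strand): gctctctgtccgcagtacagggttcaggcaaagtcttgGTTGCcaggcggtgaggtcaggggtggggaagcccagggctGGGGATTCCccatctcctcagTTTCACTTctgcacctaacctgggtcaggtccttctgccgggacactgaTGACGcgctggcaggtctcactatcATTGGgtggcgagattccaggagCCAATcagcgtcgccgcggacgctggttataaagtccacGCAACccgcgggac
B2m (chr2:122147437-122147686, plus strand): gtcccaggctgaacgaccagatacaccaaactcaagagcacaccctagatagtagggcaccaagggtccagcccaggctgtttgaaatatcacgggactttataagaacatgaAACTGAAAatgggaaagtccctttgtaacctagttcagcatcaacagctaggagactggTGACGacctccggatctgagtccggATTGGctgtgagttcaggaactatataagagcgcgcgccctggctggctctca
H2-Aa (chr17:34287824-34288073, minus strand): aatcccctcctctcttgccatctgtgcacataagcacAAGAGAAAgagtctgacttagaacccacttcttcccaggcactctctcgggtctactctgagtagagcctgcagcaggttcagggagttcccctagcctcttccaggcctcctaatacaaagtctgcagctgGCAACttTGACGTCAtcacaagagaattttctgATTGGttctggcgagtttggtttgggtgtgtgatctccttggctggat
H2-Eb1 (chr17:34305617-34305866, plus strand): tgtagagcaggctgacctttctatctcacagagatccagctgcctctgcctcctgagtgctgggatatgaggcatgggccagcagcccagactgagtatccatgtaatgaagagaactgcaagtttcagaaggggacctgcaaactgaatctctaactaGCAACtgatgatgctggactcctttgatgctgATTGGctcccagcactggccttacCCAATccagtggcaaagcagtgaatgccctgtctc

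CCAAT stood in all 6 windows of these genes and in 33.8% of the 32851 windows of all genes. TGACG stood in 5 of the 6 windows (17.8% of all windows), GCAAC in 4 (29.9%), AANNGAAA in 4 (21.3%) and GGGGATTCC in 2, those of H2-K1 and H2-D1 (0.213%). In H2-K1, H2-D1 and B2m the first base of TGACG lay 25 bases before the first base of ATTGG, the CCAAT of the other strand, and in H2-Aa 26 bases before it. A spacing of 25 or 26 bases was found in 0.0822% of all windows. In H2-Aa the capitals TGACGTCA hold TGACG on both strands with an overlap. The letters were chosen with these windows in view, and the spacing range of 25 or 26 bases was read from them. The windows of these genes are also counted among all windows. The share of 0.0822% is therefore no test of how rare the spacing is. A match is a description of the window and not a bound site. B2m thus had the same X2 and Y letters at the same spacing as the heavy chains.

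H2-K1, a classical class I heavy chain, had 17.5, 13 and 11 CPM in Bahd1-WT replicates 1, 2 and 3, and 22, 40.4 and 23.2 CPM in Bahd1-KO replicates 1, 2 and 3. Every Bahd1-KO mouse was above every Bahd1-WT mouse, with the largest value in Bahd1-KO replicate 2. The log2 fold change (LFC) of Bahd1-KO over Bahd1-WT was 1.04, with a standard error (SE) of 0.29 and a 95% interval of 0.39 to 1.69, which is 2.06-fold. Its p adjusted over all genes was 0.0655 in the quasi-likelihood (QL) test of edgeR. H2-D1, the second classical heavy chain of this strain, had 28.7, 23.5 and 19.6 CPM in Bahd1-WT and 31, 78 and 44.9 CPM in Bahd1-KO mice. Here too the genotypes did not overlap, although Bahd1-KO replicate 1 was close to Bahd1-WT replicate 1. Its LFC was 1.10 (SE 0.32, 95% interval 0.37 to 1.84) and its adjusted p was 0.0707 in the same test. Without Bahd1-KO replicate 2, the LFCs were 0.70 for H2-K1 and 0.67 for H2-D1. The heavy chains resemble each other and other class I genes of chromosome 17, so that the reads assigned to each are uncertain. The number of H2-D1 counts per H2-K1 count was 1.64, 1.81 and 1.77 in Bahd1-WT and 1.41, 1.93 and 1.94 in Bahd1-KO mice, and the mean log2 ratio of 0.80 was equal in both genotypes to 2 decimals. With the GC and length offset described with the GC results, the ratio differed by 0.22 on the log2 scale, with overlap (exact permutation test, two-sided, p = 0.4).

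B2m, the light chain without which class I heavy chains do not reach the cell surface, had 276, 330 and 232 CPM in Bahd1-WT and 260, 184 and 194 CPM in Bahd1-KO mice. Its values overlapped between the genotypes, and the mean was lower in Bahd1-KO. The LFC was -0.39 (SE 0.20, 95% interval -0.84 to 0.05, adjusted p = 0.198 from edgeR's QL test). Within a library, B2m counts per count of the summed heavy chains were 5.97, 9.04 and 7.59 in Bahd1-WT and 4.90, 1.55 and 2.85 in Bahd1-KO mice. This ratio was lower in every Bahd1-KO mouse, by 1.41 on the log2 scale, and an exact permutation test, two-sided, gave p = 0.1, the smallest that 3 mice against 3 allow. The transcripts differ in base composition, with a GC content of 41.2% for B2m and of 55.3 and 53.9% for H2-K1 and H2-D1. With each count divided by the deviation fitted for its GC content and length, the same offset, which was applied to ratios after the data were seen, B2m per heavy chain count was 4.81, 5.52 and 5.56 in Bahd1-WT and 4.24, 3.31 and 4.23 in Bahd1-KO mice, a difference of -0.44 on the log2 scale without overlap (exact permutation test, two-sided, p = 0.1).

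**Figure D1:**
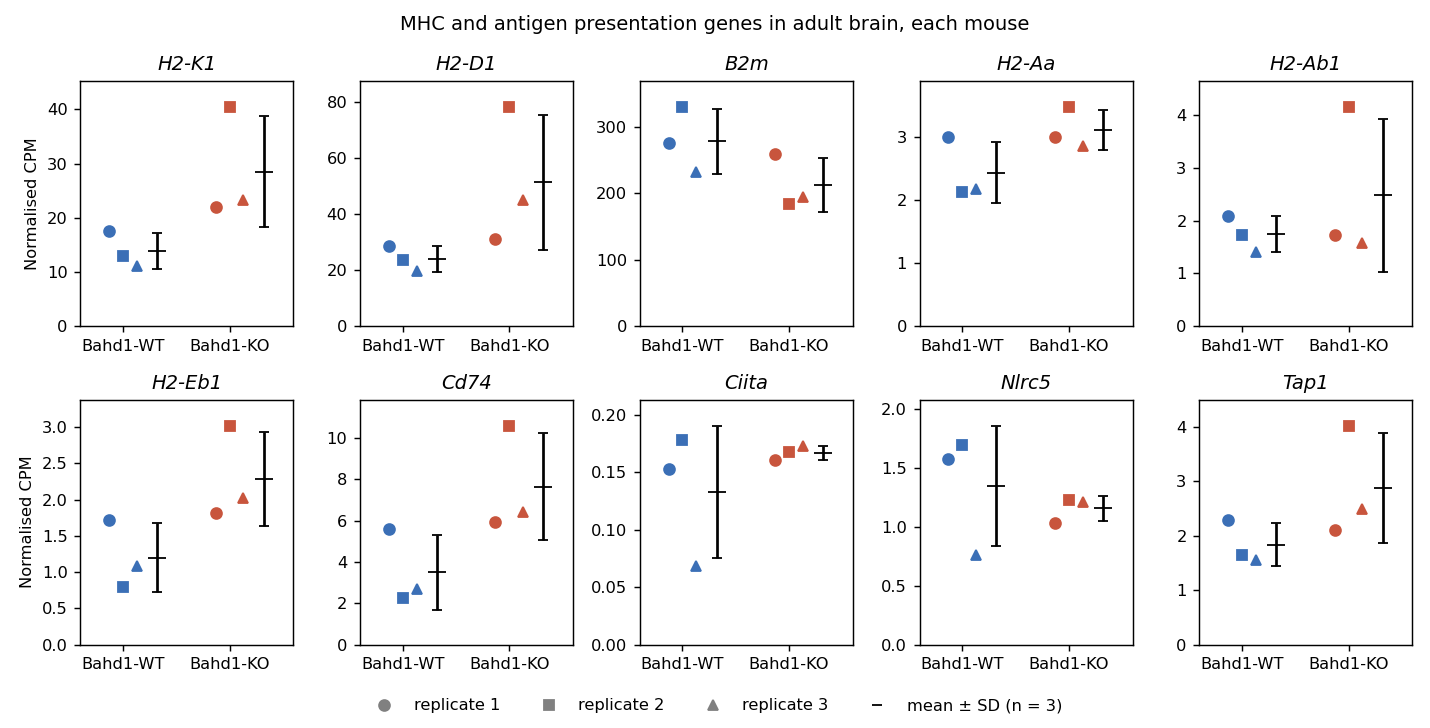
Normalised CPM of each of the 10 genes (vertical axes from 0) in each mouse of both genotypes, with the symbol giving the replicate number and bars the mean ± SD of 3 mice. H2-K1, H2-D1, H2-Eb1 and Cd74 had all 3 Bahd1-KO mice above all 3 Bahd1-WT mice, and Bahd1-KO replicate 2 was the highest in 7 of the 10 panels.

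Cd74 (chromosome 18, 60803848 to 60812652) encodes the invariant chain, which guides class II molecules and blocks their groove until loading. It had 5.61, 2.23 and 2.67 CPM in Bahd1-WT and 5.93, 10.6 and 6.41 CPM in Bahd1-KO mice. The genotypes did not overlap, but Bahd1-WT replicate 1 lay just under Bahd1-KO replicate 1. Its LFC of 1.13 (SE 0.39, 95% interval 0.24 to 2.01) had an adjusted p of 0.0976 in edgeR's QL test. H2-Eb1, a class II beta chain, had 1.72, 0.794 and 1.08 CPM in Bahd1-WT and 1.82, 3.02 and 2.02 CPM in Bahd1-KO mice, also without overlap. The LFC was 0.93 (SE 0.34, 95% interval 0.16 to 1.71) with an adjusted p of 0.108. The alpha chain that pairs with this beta chain is defective in C57BL/6 mice, and its row, H2-Ea-ps, held 1 count over the 6 libraries.

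The other class II chains, which form the I-A molecule of these mice, overlapped between the genotypes. H2-Aa, the alpha chain, had 3.01, 2.14 and 2.18 CPM in Bahd1-WT and 3.01, 3.48 and 2.87 CPM in Bahd1-KO mice (LFC 0.35, SE 0.23, 95% interval -0.18 to 0.88). H2-Ab1, the beta chain, had 2.09, 1.73 and 1.4 CPM in Bahd1-WT and 1.72, 4.15 and 1.57 CPM in Bahd1-KO mice. The value of Bahd1-KO replicate 2 carried its difference, since the LFC was 0.52 (SE 0.39, 95% interval -0.37 to 1.41) with that library and -0.08 without it. Adjusted p-values of edgeR's QL test were 0.314 for H2-Aa and 0.370 for H2-Ab1. Cd74 counts per count of the 3 class II chains together were 0.823, 0.479 and 0.573 in Bahd1-WT and 0.905, 0.998 and 0.992 in Bahd1-KO mice. This ratio did not overlap between the genotypes (difference 0.66 on the log2 scale, exact permutation test, two-sided, p = 0.1, again the lower limit). With the GC and length offset it was 0.911, 0.581 and 0.675 in Bahd1-WT and 0.891, 0.687 and 0.874 in Bahd1-KO mice, so that the genotypes overlapped and the difference was 0.19 (exact permutation test, two-sided, p = 0.6).

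Ciita, the transactivator needed for class II expression, was near the lower limit of detection, read 14, 11 and 5 times in the Bahd1-WT libraries and 7, 16 and 10 times in those of Bahd1-KO mice. In CPM these were 0.153, 0.178 and 0.0682 against 0.161, 0.168 and 0.173, and the 95% interval of the LFC, -0.70 to 1.37, held both a decrease and an increase. Nlrc5, the transactivator of class I genes, had 1.58, 1.70 and 0.764 CPM in Bahd1-WT and 1.03, 1.23 and 1.21 CPM in Bahd1-KO mice. Bahd1-WT replicate 3 was the lowest and the other Bahd1-WT mice the highest, so that the genotypes overlapped (LFC -0.22, SE 0.32, 95% interval -0.95 to 0.52). Tap1, a subunit of the peptide transporter, had 2.28, 1.65 and 1.55 CPM in Bahd1-WT and 2.11, 4.02 and 2.49 CPM in Bahd1-KO mice. Its LFC was 0.66 (SE 0.30, 95% interval -0.03 to 1.35), and 0.33 without Bahd1-KO replicate 2. Adjusted p-values of edgeR's QL test were 0.629 for Ciita, 0.661 for Nlrc5 and 0.173 for Tap1.

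Across all 10 genes, 8 had a positive and 2 a negative LFC, with a median of 0.59, while the median of all genes tested was -0.06. In edgeR's QL test, 0 of the 10 had an adjusted p under 0.05, against 0.00834% of all genes tested. At an unadjusted p under 0.05, 4 were higher in Bahd1-KO brains (H2-K1, H2-D1, H2-Eb1 and Cd74), a call that 19.9% of all genes had, and 0 were lower, a call that 12% of all genes had. The same 4 genes had no overlap between the genotypes with Bahd1-KO higher, as did 20.6% of all genes, and 0 of the 10 had no overlap with Bahd1-KO lower, as did 19.3% of all genes. DESeq2's Wald test without a prior on fold changes gave the same 4 genes an adjusted p under 0.05, against 18.1% of all genes that received an adjusted p, so that the number of calls rested on the choice of test.

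Over all expressed genes the median LFC ran with GC content, from -0.47 below 45% over -0.19 from 45 to 50% and 0.29 from 50 to 55% to 1.08 at 55% or more. The genes described here lay between 41.2% (B2m) and 57.7% (H2-Ab1), and the median GC content was 54.8% for the 10 genes and 49.1% for all genes tested. A smooth curve of log2 CPM on GC content and merged exon length was fitted in each library, and the deviation it gave for a gene was used as an offset in the test. For H2-K1 the fitted deviations on the log2 scale were -0.22, -0.54 and -0.35 in Bahd1-WT and 0.03, 0.82 and 0.26 in Bahd1-KO mice. They put the libraries in nearly the order of the measured levels. For B2m they ran the other way in part, with 0.12, 0.27 and 0.17 in Bahd1-WT and 0.25, -0.43 and -0.39 in Bahd1-KO mice. H2-Aa, with a GC content of 48.9%, had deviations between -0.11 and 0.07.

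With the offset, the LFC was 0.25 (95% interval -0.08 to 0.59) for H2-K1, 0.51 (0.07 to 0.95) for H2-D1 and -0.03 (-0.29 to 0.24) for B2m. It was 0.17 (95% interval -0.37 to 0.71) for Cd74 and 0.29 (-0.24 to 0.83) for H2-Eb1, and stayed positive for H2-Aa at 0.45 (-0.01 to 0.91). For H2-Ab1 the sign turned, with an LFC of -0.69 (95% interval -1.19 to -0.20). The values of Tap1, Ciita and Nlrc5 were -0.19, -0.54 and -0.49, with intervals that held 0. The median over the 10 genes was 0.07, and adjusted p-values of edgeR's test with the offset ran from 0.121 for H2-Ab1 to 0.928 for B2m. H2-D1 and H2-Ab1 had an unadjusted p under 0.05, in opposite directions, a call that 20.7% of all genes had in either direction. Of the heavy chains, H2-D1 thus kept an interval above 0 and H2-K1 did not. The part of base composition in the library and of genotype in these differences cannot be told apart from these 6 samples.

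**Figure D2:**
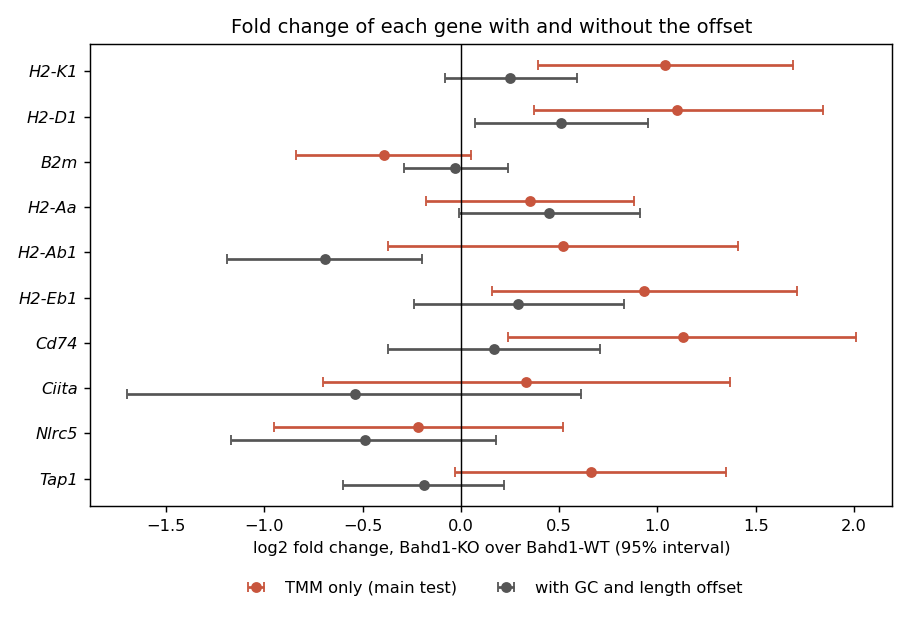
LFC of Bahd1-KO over Bahd1-WT for each gene (points) with its 95% interval (bars), from edgeR's QL test with TMM normalization alone and with the GC and length offset. H2-K1 stood at 1.04 and 0.25, and H2-Ab1 at 0.52 and -0.69.

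**Figure D3:**
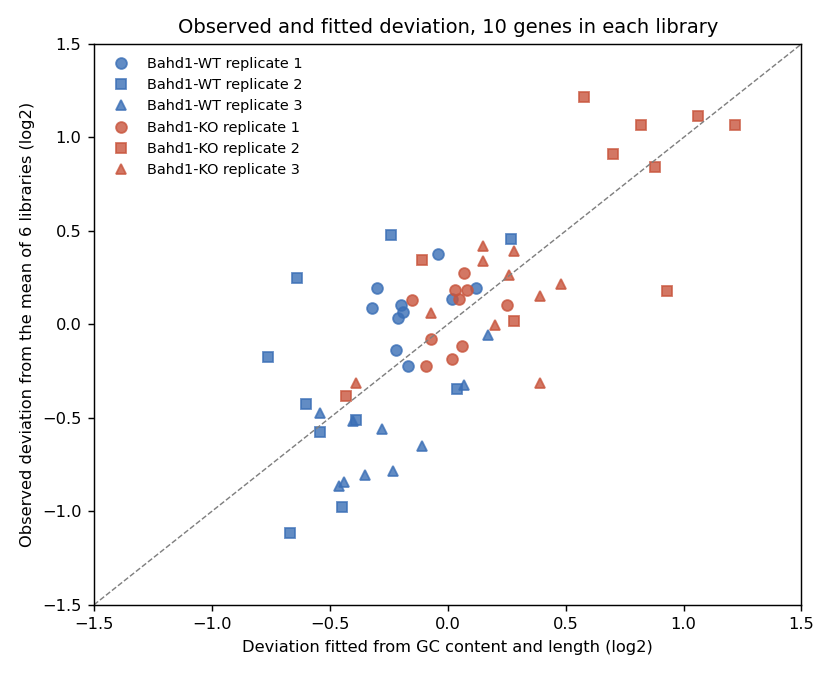
Observed log2 deviation of each of the 10 genes from its mean over the 6 libraries (vertical axis) against the deviation fitted from GC content and length (horizontal axis), with a dashed line where both are equal and a symbol for each library. Bahd1-KO replicate 2 reached fitted deviations of 0.82 for H2-K1 and 1.22 for H2-Ab1, and most Bahd1-WT points lie at negative fitted values.

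Levels can be compared between genes only per length, and are given here as CPM per kilobase of merged exons. In Bahd1-WT brains B2m was far above the rest with 325 ± 57.1 (SD, n = 3), followed by H2-D1 with 9.28 ± 1.78 and H2-K1 with 4.72 ± 1.14. Cd74 followed with 2.09 ± 1.09 CPM per kilobase. H2-Ab1 (0.678 ± 0.133), H2-Aa (0.643 ± 0.129) and H2-Eb1 (0.615 ± 0.243) were at levels that did not differ beyond their spread. Tap1 (0.334 ± 0.0723) and Nlrc5 (0.159 ± 0.0601) were lower, and Ciita was the lowest with 0.0140 ± 0.00604. In Bahd1-KO brains the order of B2m (247 ± 47.8), H2-D1 (19.9 ± 9.36), H2-K1 (9.71 ± 3.51) and Cd74 (4.56 ± 1.54) was the same. H2-Eb1 (1.18 ± 0.333), H2-Ab1 (0.966 ± 0.563) and H2-Aa (0.821 ± 0.0837) followed. The spread of H2-Ab1 held the means of the other two, while the means of H2-Eb1 and H2-Aa each lay outside the SD of the other. Merged exons can include parts that these brains do not use, so that the level of a gene with many annotated isoforms is a low estimate.

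The other genes of the pathway were taken from lists of 61 genes, of which 60 were in the table and 56 were tested. H2-T3, H2-M2, H2-Ea-ps and Ifng, the gene of interferon gamma, had sums of 4, 3, 1 and 6 counts and were not tested. Of the 56, 0 had an adjusted p under 0.05 in edgeR's QL test, and 16 were higher and 7 lower in Bahd1-KO at an unadjusted p under 0.05, calls that 19.9% and 12% of all genes had. DESeq2's Wald test without a prior gave 10 higher, against 18.1% of all genes, and 1 lower, against 3.69%, at an adjusted p under 0.05. Their median LFC was 0.18, and 0.07 with the offset.

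Among 16 tested class I molecules other than H2-K1 and H2-D1, 6 were higher and 1 lower at an unadjusted p under 0.05 (19.9% and 12% of all genes), with a median LFC of 0.53 and of 0.21 with the offset. Fcgrt, a class I-like receptor that carries IgG and albumin, had 5.68, 3.98 and 4.72 CPM in Bahd1-WT and 7.35, 16.7 and 10.1 CPM in Bahd1-KO mice, an LFC of 1.25 (SE 0.32). The largest LFCs were 1.83 for H2-Q10 (SE 0.54), which is best known from liver and was at 0.0545 CPM in Bahd1-WT brains, and 1.69 for the annotated pseudogene H2-K2 (SE 0.51). H2-T23, a non-classical heavy chain whose product is read by natural killer cells, had an LFC of 1.00 (SE 0.38). H2-M3 (0.56) and H2-T22 (0.51) were also higher. With the offset, the LFC was 1.28 for H2-Q10, 0.38 for H2-M3, 0.35 for Fcgrt, 0.34 for H2-T22, 0.28 for H2-K2 and 0.16 for H2-T23. H2-Q10 was read only 6, 1 and 6 times in the Bahd1-WT libraries. At an unadjusted p under 0.05 with the offset, 3 were higher (H2-Q10, H2-T22 and Fcgrt) and 2 lower (H2-Q1 and H2-Q4). In either direction 20.7% of all genes had that call. H2-Q4 was at -0.60 with the offset and at 0.14 without it. With a single library left out, the lowest LFC was 0.83 for H2-K2 and 0.40 for H2-T23. H2-Q1 was lower in every Bahd1-KO mouse, with an LFC of -0.63 (SE 0.25), and of -0.54 with the offset. Adjusted p-values of edgeR's QL test for the 7 genes called without the offset ran from 0.0634 for Fcgrt to 0.149 for H2-M3.

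Of the 12 genes of peptide supply and loading, 4 were higher and 1 lower at an unadjusted p under 0.05 (19.9% and 12% of all genes), with a median LFC of 0.16 and of 0.03 with the offset. With the offset 3 were higher (Tap2, Psmb8 and Psmb10) and 2 lower at an unadjusted p under 0.05, a call in either direction that 20.7% of all genes had. The latter were the proteasome activator gene Psme1 and Tapbp, which encodes tapasin of the loading complex, with LFCs of -0.65 and -0.96 with the offset and of 0.01 and 0.15 without it. The 4 genes higher without the offset were the partner subunit of Tap1 and the 3 subunits that replace others in the immunoproteasome. Tap2 had 2.33, 1.43 and 1.15 CPM in Bahd1-WT and 3.10, 11.9 and 5.2 CPM in Bahd1-KO mice, an LFC of 2.05 (SE 0.50), and of 0.81 with the offset. Psmb10 had 4.23, 2.90 and 3.74 CPM in Bahd1-WT and 8, 27.3 and 9.76 CPM in Bahd1-KO mice (LFC 2.05, SE 0.45, and 0.67 with the offset). For Psmb8 the LFC was 1.33 (SE 0.40) and 0.70 with the offset, and for Psmb9 1.08 (SE 0.33) and 0.45. With a single library left out, the lowest LFC was 1.35 for Tap2 and 1.29 for Psmb10. Erap1, which trims peptides in the endoplasmic reticulum, had an LFC of -0.53 (SE 0.21), and 0.00 with the offset. Adjusted p-values of edgeR's QL test without the offset were 0.0634 for Tap2 and Psmb10, 0.0721 for Psmb8, 0.0755 for Psmb9 and 0.125 for Erap1.

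Of 13 tested genes of class II molecules, loading and processing, 3 were higher and 3 lower at an unadjusted p under 0.05, where 19.9% and 12% of all genes were, with a median LFC of 0.55 and of 0.04 with the offset. H2-DMa, a chain of the molecule that exchanges peptides on class II, had 3.76, 2.01 and 2.17 CPM in Bahd1-WT and 4.07, 10.3 and 6.15 CPM in Bahd1-KO mice, an LFC of 1.37 (SE 0.39), and of 0.43 with the offset. H2-DMb1, its partner chain, was at 0.62 (SE 0.23), and the lysosomal protease gene Lgmn at 0.61 (SE 0.20), and with the offset they were at 0.14 and 0.51. The co-stimulatory ligands Cd86 and Cd80 were lower, with LFCs of -0.75 (SE 0.27) and -0.71 (SE 0.28), as was Ctss, the protease that degrades the invariant chain, with -0.40 (SE 0.17). At an unadjusted p under 0.05 with the offset, 1 gene of this list was higher (Lgmn) and 0 were lower. In either direction 20.7% of all genes had that call. With the offset, Cd86 was at -0.40, Cd80 at -0.30 and Ctss at -0.23. Adjusted p-values of edgeR's QL test without it ran from 0.0671 for H2-DMa to 0.147 for Ctss.

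Of 15 tested genes of transcriptional regulators and interferon gamma signalling, 3 were higher and 2 lower at an unadjusted p under 0.05, near the 19.9% and 12% of all genes, with medians of 0.07 and, with the offset, -0.07. Rfxank, a subunit of the RFX complex on the X box, had 6.80, 4.28 and 5 CPM in Bahd1-WT and 7.79, 20.1 and 13.8 CPM in Bahd1-KO mice (LFC 1.37, SE 0.35, and 0.60 with the offset). The other RFX subunits, Rfx5 and Rfxap, had LFCs of -0.24 and -0.09, and of -0.31 and -0.60 with the offset. With the offset 5 of the 15 genes were higher (Rfxank, Nfyc, Ifngr2, Irf2 and Ifngr1) and 3 lower (Rfx5, Rfxap and Irf8) at an unadjusted p under 0.05, against 20.7% of all genes in either direction. Nfyc, an NF-Y subunit, was at 0.61 (SE 0.21) and the interferon gamma receptor chain Ifngr2 at 0.37 (SE 0.15), and with the offset they were at 0.34 and 0.36. Creb1 was at -0.56 (SE 0.20) and Jak2, a kinase of that receptor, at -0.49 (SE 0.18), and both were near 0 with the offset (-0.07 and -0.12). Irf1, which carries the interferon gamma signal, had an LFC of 0.32 (SE 0.25), with an unadjusted p above 0.05, and of -0.19 with the offset. Adjusted p-values of edgeR's QL test for the 5 genes past that limit ran from 0.0634 for Rfxank to 0.138 for Ifngr2.

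**Figure D4:**
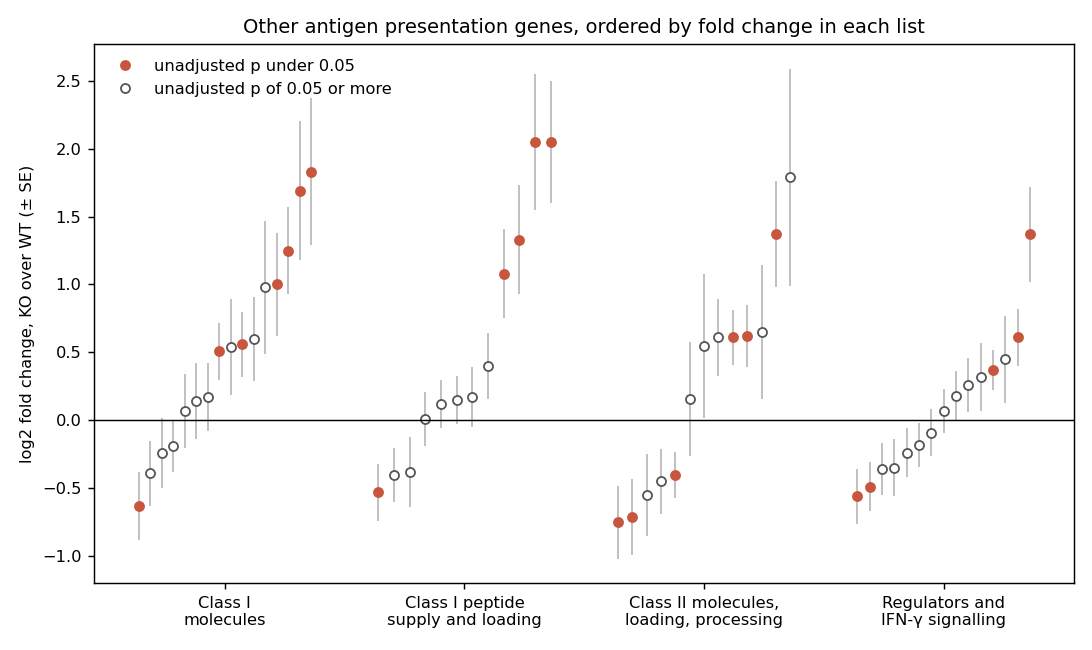
LFC of Bahd1-KO over Bahd1-WT (± SE) for the 56 other genes tested, ordered by fold change within each of 4 lists, with filled points for an unadjusted p under 0.05. The points run from -0.75 for Cd86 to 2.05 for Tap2 and Psmb10, and each list holds filled points on both sides of 0.

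Marker genes of cells that carry MHC molecules were compared across the same libraries. The summed level of H2-Aa, H2-Ab1, H2-Eb1 and Cd74 was 12.4, 6.90 and 7.34 CPM in Bahd1-WT and 12.5, 21.3 and 12.9 CPM in Bahd1-KO mice. The high value of Bahd1-WT replicate 1 stood beside its lung marker level of 118 CPM and its level of 5.37 CPM over 6 alveolar macrophage markers, against 0.614 to 2.19 CPM in the other 5 libraries. Chil3 alone held 3.86 of the 5.37 CPM, and Marco, at 0.0546 CPM, was not the highest there. All 9 lung epithelium genes were detected in that library, among them Scgb1a1 with 4448 counts and Sftpc with 2359 counts. Bahd1-WT replicate 2 had the next highest lung (27.6 CPM) and alveolar macrophage (2.19 CPM) marker levels, with 922 counts of Scgb1a1. Its class II level of 6.90 CPM was the lowest of all libraries. A link between these levels was not tested. Without Bahd1-KO replicate 2 the LFC was 0.82 for Cd74 (adjusted p = 0.19 in edgeR's QL test), 0.68 for H2-Eb1 (adjusted p = 0.237), 0.26 for H2-Aa, -0.31 for B2m, 0.33 for Ciita and -0.26 for Nlrc5. Without Bahd1-WT replicate 1 the LFC of Cd74 was 1.64, and those of the other 9 genes ran from -0.41 for B2m to 1.29 for H2-Eb1. Without both Bahd1-WT replicate 1 and Bahd1-KO replicate 2, a choice made after the data were seen, these values were 1.35 for Cd74, 0.93 for H2-K1, 0.84 for H2-D1, 1.05 for H2-Eb1 and 0.09 for H2-Ab1.

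Microglia markers, 14 genes, summed to 395 to 476 CPM in Bahd1-WT and 447 to 456 CPM in Bahd1-KO mice, with overlap. Within that list 5 genes were higher and 3 lower in Bahd1-KO mice without overlap, as were 20.6% and 19.3% of all genes. C1qc, a complement chain, was among the former (5.84 to 10.8 CPM in Bahd1-WT and 14.4 to 41.1 CPM in Bahd1-KO), and P2ry12 was among the latter, with an LFC of -0.54. Dendritic cell markers summed to 35.5 to 36.5 CPM in Bahd1-WT and 35.9 to 42.2 CPM in Bahd1-KO mice, and T cell markers to 8.45 to 9.78 and 8.09 to 10.8 CPM. Zbtb46 and Flt3 held most of the dendritic cell sums, while Xcr1, Clec9a and Ccr7 had at most 9 counts in any library. Of the 7 dendritic cell genes tested, 3 had a positive and 4 a negative LFC. Flt3 (LFC 0.34) and Batf3 (LFC 2.13) were higher in every Bahd1-KO mouse, as were 20.6% of all genes. Batf3 had 0.0765, 0.0648 and 0.0409 CPM in Bahd1-WT and 0.115, 0.536 and 0.121 CPM in Bahd1-KO mice. Cd4 held most of the T cell sums, while the Cd3d, Cd3e and Cd3g genes of the T cell receptor complex had at most 19 counts in any library. Border macrophage markers, 7 genes, were at 17.9 to 31.4 CPM in Bahd1-WT and 10.3 to 19.3 CPM in Bahd1-KO mice. The lowest value was in Bahd1-KO replicate 2, the library with the highest class II level. Of these genes 6 had a negative LFC, and Lyve1 was lower in every Bahd1-KO mouse (LFC -1.10). Pf4 went the other way and was higher in every Bahd1-KO mouse (LFC 0.57). B cell markers did not overlap, with 20.8 to 23.5 CPM in Bahd1-WT and 25.5 to 37.5 CPM in Bahd1-KO mice, but Ighm alone held 18.6 to 34.5 CPM of these sums, and the defining B cell gene Ms4a1 had at most 8 counts in any library. Neutrophil markers were at 6.72 to 7.61 CPM in Bahd1-WT and 1.76 to 6.55 CPM in Bahd1-KO mice. S100a8 and S100a9 held most of these sums, while Camp had an LFC of 1.59. Endothelial markers summed to 203 to 226 and 202 to 240 CPM, with overlap, and Flt1 and Slco1a4 together held the larger part of these sums. Cldn5, a tight junction gene, was higher in every Bahd1-KO mouse (LFC 2.56) and Slco1a4 was lower in every one (LFC -0.44). Choroid plexus markers did not overlap, with 293 to 391 CPM in Bahd1-WT and 469 to 1080 CPM in Bahd1-KO mice, but Ttr alone held 213 to 309 and 402 to 1020 CPM of these sums, and Kl and Prlr were lower in every Bahd1-KO mouse. Summed red cell markers ran from 10.8 to 15.9 and from 15.1 to 92.6 CPM. The part of these cells in the levels of the MHC genes was not tested.

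**Figure D5:**
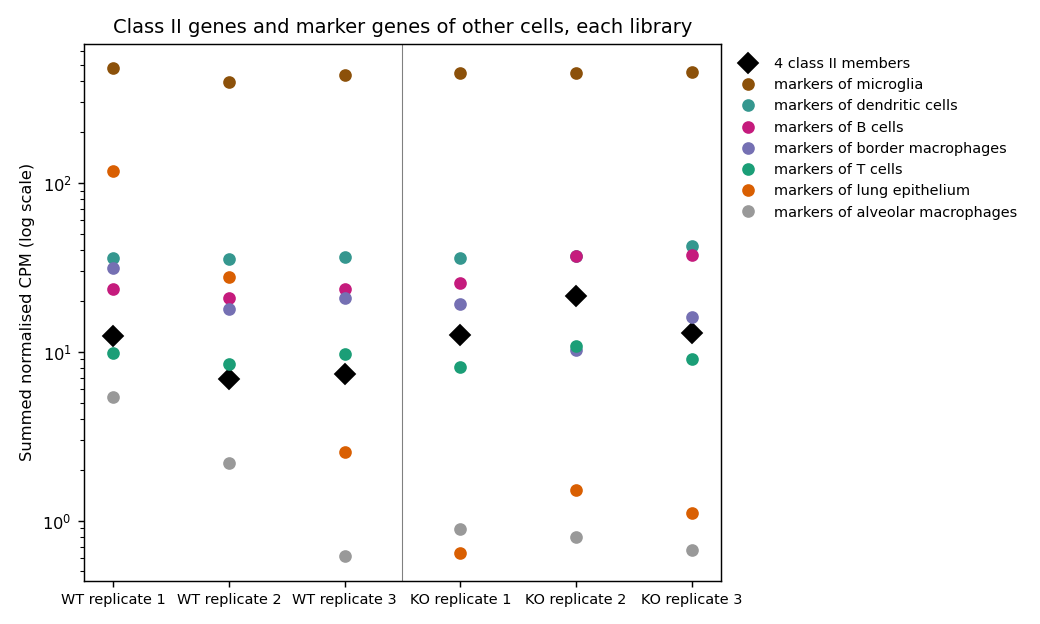
Summed normalised CPM (log scale) of the 4 class II members and of marker gene lists of other cells in each of the 6 libraries. Class II genes were highest in Bahd1-KO replicate 2 with 21.3 CPM, while lung epithelium markers were highest in Bahd1-WT replicate 1 with 118 CPM and microglia markers were level across libraries.

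Genes outside all lists were ranked by how closely their log2 CPM over the 6 libraries followed the mean of the 4 class II genes. The 5 closest of 14484 genes were Togaram2, Gal, Gpx7, Nupr1 and Gpsm1, with Pearson correlations between 0.991 and 0.993. Their LFCs between the genotypes were 0.92, 0.99, 0.77, 0.75 and 1.31, and their GC contents ran from 52.5 to 59.4%. All of them had their highest level in Bahd1-KO replicate 2, as the class II sum had. Their level in Bahd1-WT replicate 1 was above those of the other Bahd1-WT libraries, again as for the class II sum. These likenesses and the positive LFCs followed from the choice by correlation and are no separate result. The correlations describe 6 libraries that differ in depth and base composition, and carry no test. Whether these differences bear on the likeness was not tested.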

How the data were processed

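RNA-seq read counts per gene of 3 Bahd1-WT and 3 Bahd1-KO adult brain hemispheres were analysed, grouped by their titles. According to the methods and the submitters' processing notes, the authors trimmed reads with Cutadapt 1.11, aligned them to GRCm38 with STAR 2.5.0a (Tophat2 is also named) and counted stranded reads on exons with featureCounts 1.4.6-p3. They deposited raw whole-number counts for 53801 genes, 1 column per mouse, with no filter, and the table holds 0 columns from elsewhere. Technical runs are not separate columns. Nothing in the labels ties same-numbered mice to each other.

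Genes whose counts summed to 10 or more were tested with edgeR 4.0.16 in R 4.3.3 (TMM normalization, quasi-likelihood test, genotype as the only factor, Benjamini-Hochberg adjustment over 23975 genes). A gene passed at an adjusted p-value under 0.05. Standard errors and 95% intervals come from that fit. DESeq2 1.42.0 was an alternative. The GC and length offset used natural splines with 5 and 3 degrees of freedom, fitted in each library to 13283 genes above 1 on the log2 CPM scale, with GENCODE M21 annotation, which covered 23940 genes. Promoter windows came from RefSeq (GRCm38.p6), and motif letters were searched in the bases before the start. The tests were tried on simulated counts. Other alternatives were 3 normalizations, 3 filters, each sample left out and the replicate block.

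Members and gene lists were chosen with earlier results of these data known. Named were the 10 members, Bahd1, up to 6 genes of each wider list with an unadjusted p under 0.05 by size of change, defining markers, and the 5 genes most like the class II genes over the libraries. H2-T22, H2-Q4, Rfx5, Rfxap, Irf1, Irf2, Irf8, Ifngr1, Psme1, Tapbp and genes not tested were added after their values were seen. Some genes of the lists are not reported here by name. Siglecf and H2-Ea had no row under these names. Counting intervals and floors cover counting error only. Embryonic brains, RT-qPCR and behaviour were not analysed here.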

Additional observations from a re-analysis of the deposited data

How the results depend on the processing

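Of 180 repeats for single genes of the 10, 155 kept their direction and their side of an adjusted p of 0.05, 18 passed that limit in place of missing it, and 7 turned their sign. The sign turned for H2-Ab1 without Bahd1-KO replicate 2 (-0.08), with the GC and length offset (-0.69) and with the offset and the replicate block together (-0.70), for Ciita with the offset (-0.54) and with both (-0.49), and for Tap1 with the offset (-0.19) and with both (-0.19). With a single sample left out, the value of H2-Ab1 ran from -0.08 to 0.79. That of Ciita ran from 0.02 to 0.56 and that of Nlrc5 from -0.50 to -0.02. The cause was not tested.

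The number of the 10 genes higher at an adjusted p under 0.05, 0 in edgeR with TMM, was 1 with total counts, 4 with DESeq2 with and without a prior, 3 with a sum of at least 1 count, 2 without Bahd1-WT replicate 1 and Bahd1-KO replicate 2, and between 0 and 4 with a single sample left out (4 without Bahd1-KO replicate 1). At an unadjusted p under 0.05, 4 were higher, and 1 with the offset, 1 with the offset and the block, and between 2 and 5 with a sample left out (2 without Bahd1-WT replicate 2 and 2 without Bahd1-WT replicate 3). None was lower, against 1 with upper-quartile factors, 1 with the offset, 1 with the offset and the block, and 0 to 1 with a sample left out. The median log2 fold change of 0.59 was 0.07 with the offset, 0.12 with the offset and the block, and 0.33 to 0.81 with a sample left out. Of the 56 other pathway genes, 0 were higher at an adjusted p under 0.05, against 5 with total counts, 10 with DESeq2 in both forms, 8 with a sum of at least 1 count, 5 without both doubted libraries and 0 to 14 with a sample left out, and 0 were lower, against 1 with DESeq2 in both forms and 0 to 6 with a sample left out.

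Over all genes, calls at an adjusted p under 0.05 in either direction numbered 2 of 23975 with TMM and 2253 of 23975 with total counts. DESeq2 gave 4114 without a prior, of 18844 genes that received an adjusted p, and 4115 with it. A sum of at least 1 count gave 3611 of 32795. Without Bahd1-KO replicate 1, where the 14 higher and 6 lower pathway genes were called, 7113 of 23690 genes were called. Without both doubted libraries the number was 1301 of 21884. With the offset it was 5 of 23975, and 12 of 23975 with the offset and the block. Upper-quartile factors moved the median of all genes by -0.14. Same-numbered mice did not deviate together (correlations of -0.223, -0.244 and -0.0248). The replicate block, which gave 7 calls over all genes, gave 0 among the 10.

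With 3 mice a group, edgeR's p-values set the genotype difference against a spread between mice that is estimated with the help of all genes. Ciita had 5 to 16 counts a library, and the interval of its fold change held 0.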
